A study of Mus musculus with 4 samples.

Results

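The Ly6c2-positive, checkpoint-zero CD8 T cells of B16F10 tumours were 63 barcodes out of 10602 in 4 libraries, of which 7858 passed all quality limits and 1106 fell in the CD8 T cell gate. They were chosen by transcript counts. A gated barcode had at least 300 genes, at least 500 UMIs (unique molecular identifiers, each a counted transcript), at most 20% mitochondrial UMIs and at least 10% ribosomal protein UMIs. It also had at least 1 UMI of Cd3d, Cd3e or Cd3g, at least 1 of Cd8a or Cd8b1, and none of Cd4 or Ncr1. A member further had at least 1 Ly6c2 UMI and none of the checkpoint receptor genes Pdcd1, Havcr2 and Lag3, fewer than 10 UMIs of Gzmc, Gzmd, Gzme and Gzmf together, and at most 1 of Mki67 and Top2a. Since the choice rests on these counts, the levels of these genes are descriptions and carry no test.

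B16F10 is a mouse melanoma line that grows as a transplanted tumour. The tumours were dissociated, freed of red blood cells, debris and dead cells, and profiled without sorting by 5′ droplet single-cell RNA sequencing, with 1 library for each of 4 groups. These were D+F+P (doxorubicin, fasudil and an antibody against PD-1), D+F (fasudil, which blocks ROCK kinases, together with the anthracycline doxorubicin), aPD-1 (the antibody alone) and Control. The design text presents the tumour as resistant to checkpoint blockade, and the comparison asks how the combination changes the tumour's immune cells; mouse numbers per library, doses and times were not given in the sources used here. The D+F+P, D+F, aPD-1 and Control libraries held 27, 26, 8 and 2 members. With 1 library per group, differences between libraries have no replicate check, and every interval below is an exact 95% interval that covers counting error only.

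Ly6C is a small surface protein anchored by a lipid, carried by monocytes and by many antigen-experienced CD8 T cells in mice. Memory CD8 T cells keep a capacity to recirculate and to renew, for which the transcription factor TCF-1 (Tcf7) is known, while T cells under lasting antigen stimulation in a tumour take up PD-1 (Pdcd1), TIM-3 (Havcr2) and LAG-3 (Lag3). Granzyme K (Gzmk) and the chemokine Ccl5 are typical transcripts of effector memory cells.

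Ly6c2 lies on chromosome 15 beside a near copy, Ly6c1, and the start of both coding sequences is shown because reads from a shared stretch cannot be placed in either gene. Capitals mark the bases at which the pair differs, in the first 150 bases, read 5′ to 3′ from the GENCODE annotation of GRCm38 (Ly6c2 at chr15:75108161-75111970, Ly6c1 at chr15:75045013-75048830, both on the minus strand).
Ly6c2: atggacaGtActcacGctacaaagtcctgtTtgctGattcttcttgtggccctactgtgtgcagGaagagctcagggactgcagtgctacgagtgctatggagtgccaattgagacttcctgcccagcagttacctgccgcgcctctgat
Ly6c1: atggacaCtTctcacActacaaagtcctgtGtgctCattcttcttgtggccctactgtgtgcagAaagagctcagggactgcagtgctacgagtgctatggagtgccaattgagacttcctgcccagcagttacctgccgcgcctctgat
The coding sequences of 396 bases differ at 9 bases, 6 of them in this window, and the longest run without a difference is 188 bases. Members had 193, 93, 54 and 10 Ly6c2 UMIs in the D+F+P, D+F, aPD-1 and Control libraries and 0 Ly6c1 UMIs in each, and reads that lie within a shared run cannot be told apart.

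The label "memory-like" was checked against its 4 markers. Ccl5 was found in 58 of 63 members, Gzmk in 28 and Tcf7 in 14, and Ly6c2 was there by choice. Melanoma barcodes, which are deeper, had Ccl5 in 33.4%, Gzmk in 0.128% and Tcf7 in 8.98% of cells, and after thinning to 1000 UMIs Ccl5 was found in 85.7% of members and 7.45% of melanoma barcodes. Checkpoint-positive CD8 T cells, described below and also deeper, had Ccl5 in 96.4%, Gzmk in 42.0% and Tcf7 in 5.32% of cells. At full depth, members had these genes in 92.1%, 44.4% and 22.2% of cells. After thinning, Ccl5 was found in 88.65% and Gzmk in 16.0% of checkpoint-positive cells, against 85.7% and 26.8% of members. Ccl5 detection thus did not set members apart from these cells. Gzmk and Tcf7 met in 4 members, all in the D+F+P library, while 25 members had neither. Since most members lacked a Tcf7 UMI, the cells are named here by their rule. Near the limits, 17 of 63 members had a single Ly6c2 UMI, 37 further cells missed membership by 1 checkpoint UMI, 4 missed it by 1 UMI of Mki67 or Top2a, and 60 members had no UMI of Gzmc to Gzmf. No cell with 10 to 19 of those granzyme UMIs would otherwise have been a member. Of the 679 gated CD8 T cells with a Ly6c2 UMI, 605 also had a checkpoint UMI, so Ly6c2 transcripts were mostly found outside the members.

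The members were shallow cells. Their median was 2649, 2247.5, 3518.5 and 9757.5 UMIs in the D+F+P, D+F, aPD-1 and Control libraries, against 5629.5, 4035, 4726.5 and 3116 UMIs in the checkpoint-positive CD8 T cells described below. Mitochondrial UMIs had medians of 3.53%, 1.88%, 2.34% and 2.26% in members, against 1.86%, 1.70%, 1.82% and 1.48% in checkpoint-positive cells. At least 1 UMI of the melanoma genes Pmel, Mlana, Dct or Tyrp1 was found in 44 of 63 members, and in 333 of 526 checkpoint-positive cells. A single aPD-1 member had 226 of these UMIs and 50.1% of all UMIs of that library's members, and a single Control member had 171 and 84.7%, so aPD-1 and Control levels are given without these cells where it matters. No doublet caller was run. Of the 39 members in which a T cell receptor Trbv gene was read with at least 2 UMIs, 4 had 2 or more such genes, and whether these barcodes hold more than 1 cell was not tested. Across libraries 69 cell barcodes recurred, and none was a member. Trdc, Klrb1c, Zbtb16, Lyz2, Csf1r, Flt3 and Siglech, defining genes of other lymphoid and myeloid cells, had 0 UMIs in all members, but the sums of some marker lists were not near 0. The 7 NK cell markers outside the rule summed to 99.0, 86.3, 0 and 51.2 CPM (counts of a gene scaled to the summed counts of the cell set) in the D+F+P, D+F, aPD-1 and Control members, against 225.7, 87.3, 206 and 65.9 CPM in checkpoint-positive cells. Of those 7 genes, 4, 2, 0 and 1 had a UMI in the members. Gamma-delta T cell markers had 2, 0, 0 and 7 UMIs in the members, and the 5 neutrophil and 3 erythroid markers had 0. The 8 monocyte and macrophage markers summed to 86.6, 43.1, 93.5 and 0 CPM in D+F+P, D+F, aPD-1 and Control members (7, 3, 4 and 0 UMIs), against 47.7, 36.4, 46.6 and 65.9 CPM in checkpoint-positive cells. The 6 dendritic cell markers summed to 61.9, 14.4, 23.4 and 0 CPM in members (5, 1, 1 and 0 UMIs), against 5.37, 7.28, 10.7 and 0 CPM in checkpoint-positive cells. Of the 6 plasmacytoid dendritic cell markers, which summed to 384, 561, 678 and 1179 CPM in members, against 429, 320, 299 and 231 CPM in checkpoint-positive cells, the interferon-induced gene Bst2 gave 334, 532, 631 and 1179 CPM in members. The 4 markers of NKT and MAIT cells summed to 347, 201, 187 and 0 CPM in members, against 186, 155, 186 and 395 CPM in checkpoint-positive cells, and in members all of it was Icos, which activated T cells also carry. The part of other cells in the results was not tested.

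Members made up 5.63% of gated CD8 T cells in the D+F+P library (27 of 480, interval 3.74 to 8.08), 11.5% in D+F (26 of 227, 7.62 to 16.3), 2.10% in aPD-1 (8 of 381, 0.911 to 4.10) and 11.1% in Control (2 of 18, 1.38 to 34.7). The aPD-1 share lay below that of D+F with no overlap of intervals, and the Control share rests on 2 cells. Zero checkpoint UMIs are easier to reach in a shallow cell, so the gate was repeated after every CD8 T cell was thinned to 1000 UMIs. The shares were then 16.0% in D+F+P (51 of 319, 12.1 to 20.5), 15.8% in D+F (25 of 158, 10.5 to 22.5), 5.14% in aPD-1 (15 of 292, 2.90 to 8.33) and 15.4% in Control (2 of 13, 1.92 to 45.4). The gap between D+F+P and D+F at full depth was thus not present after this thinning, whereas aPD-1 was then lower than D+F+P and D+F with no overlap of intervals. Thinning before the gate can make members of cells that had checkpoint UMIs at full depth, so these shares count other cells. In cells of at least 1000 UMIs, not thinned, shares were 4.45% in D+F+P (20 of 449, 2.74 to 6.80), 11.8% in D+F (26 of 221, 7.83 to 16.8) and 2.12% in aPD-1 (8 of 377, 0.920 to 4.14). Thinning left out 31, 6, 4 and 1 cells under 1000 UMIs in the D+F+P, D+F, aPD-1 and Control libraries. Most of the fall in gated cells came from the gate itself, since cells that kept no CD3 or no CD8 gene UMI after thinning also dropped out. Of all barcodes that passed the limits, members were 1.79%, 1.14%, 0.415% and 0.0931% in the same libraries. The limit on ribosomal protein UMIs removed 935 barcodes from the D+F+P library, against 219, 311 and 138 in D+F, aPD-1 and Control, and without it the shares of CD8 T cells were 6.23%, 10.8%, 2.21% and 10.0% in D+F+P, D+F, aPD-1 and Control.

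**Figure D1:**
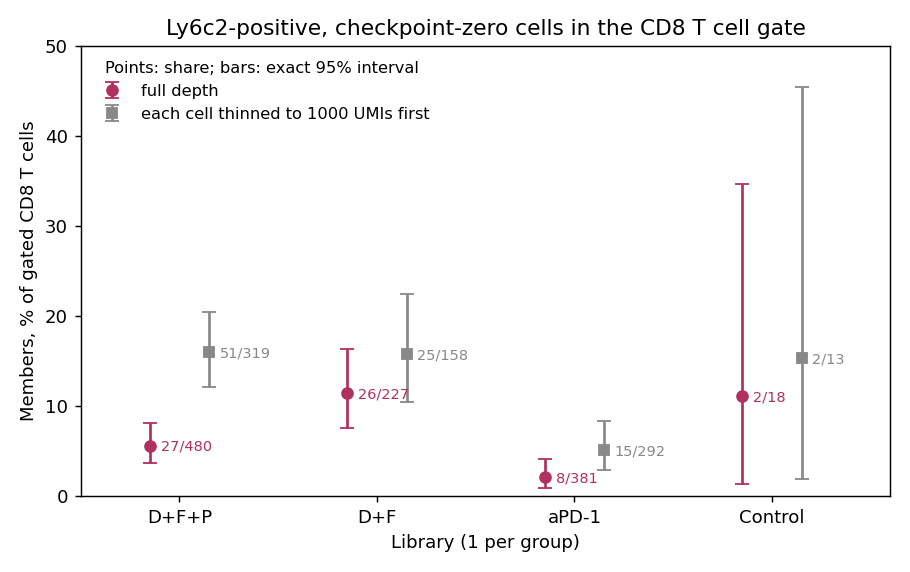
Members as a percent of gated CD8 T cells (y axis) in each library (x axis), at full depth (circles) and after thinning each cell to 1000 UMIs (squares), with exact 95% intervals and cell counts. At equal depth D+F+P and D+F stand at 16.0% and 15.8%, and aPD-1 at 5.14%.

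Against checkpoint-positive CD8 T cells, the members were higher in genes of recirculating and resting T cells (S1pr1, Tcf7, Itgb7), in granzyme A and the chemokines Ccl5 and Xcl1, and in the early activation genes Cd69 and Nr4a1. They were lower in perforin, in the costimulatory receptors Tnfrsf4 and Tnfrsf9, and in inhibitory genes beyond those of the rule, among them Tox, Tigit, Ctla4 and Rgs16. The checkpoint-positive cells had the same gate with at least 1 UMI of Pdcd1, Havcr2 or Lag3, and numbered 236, 91, 192 and 7 in D+F+P, D+F, aPD-1 and Control. UMIs were summed per library and cell set and tested within libraries with edgeR's quasi-likelihood test. Only D+F+P and D+F had at least 10 cells of each kind, so each p-value rests on 53 members of 2 libraries. Of 3033 genes tested outside the rule, 98 passed an adjusted p of 0.05 (3.23%), with 61 higher in members (2.01%) and 37 lower (1.22%), and the median log2 fold over all tested genes was -0.02. DESeq2 called 28 genes, 27 of them among the 98. With every cell thinned to 1000 UMIs before the gate, edgeR called 1 gene of 903, Tnfrsf9, and 68 of 72 main calls still tested kept their sign. With the gate set at full depth and cells thinned afterwards, 31 of 745 genes were called, 29 of them among the 98. A fit that admitted aPD-1 called 72 genes, 52 of them among the 98, and 0 without D+F+P, where 262 genes had an unadjusted p under 0.05.

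S1pr1, Tcf7 and Itgb7, from the lists of memory and trafficking genes, rose in members. S1pr1, the sphingosine-1-phosphate receptor by which T cells leave tissue, stood at 210, 86.3, 23.4 and 51.2 CPM in D+F+P, D+F, aPD-1 and Control members (17, 6, 1 and 1 UMIs), against 16.1, 9.70, 3.88 and 32.9 CPM in checkpoint-positive cells. Its log2 fold was 3.63 ± 0.42 (SE, adjusted p = 0.002). Tcf7 had 13, 4, 1 and 1 UMIs in the same members, or 161, 57.5, 23.4 and 51.2 CPM, against 12.1, 24.3, 13.6 and 32.9 CPM in checkpoint-positive cells, and its log2 fold was 2.96 ± 0.61 (adjusted p = 0.0278). With 1 UMI in members of aPD-1 and of Control, neither gene can be placed above or below checkpoint-positive cells there. The counting interval of the Tcf7 log2 ratio left out 0 in D+F+P (3.73, 2.58 to 4.84) and held it in D+F (1.25, -0.88 to 3.04), aPD-1 and Control. Of the 20 listed memory and naive genes, 8 passed the low-count filter, 2 rose, none fell, and the list's median log2 fold was 0.85. S1pr1 and Tcf7 met this filter through their levels in members. A gene as sparse in checkpoint-positive cells could be tested only if higher in members, so these counts and the median depend in part on the filter. Ccr7, the homing receptor for lymph nodes, had 74.3, 316, 164 and 0 CPM in members, against 49.7, 131, 82.5 and 1219 CPM in checkpoint-positive cells, and did not pass (log2 fold 1.06, adjusted p = 0.149); 1 cell held 54% of its UMIs in D+F+P and D+F members. The interleukin-7 receptor Il7r (3, 3, 0 and 0 UMIs in members) and the transcription factor Lef1 (4, 2, 0 and 0 UMIs) were too sparse to be tested. Of 16 trafficking genes 10 were tested: S1pr1 and Itgb7, an integrin subunit of gut-homing T cells (log2 fold 1.88 ± 0.37), rose, and Cxcr6, the receptor for the chemokine CXCL16, fell by 1.67 ± 0.30 on the log2 scale, with a median over the list of 0.84.

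**Figure D2:**
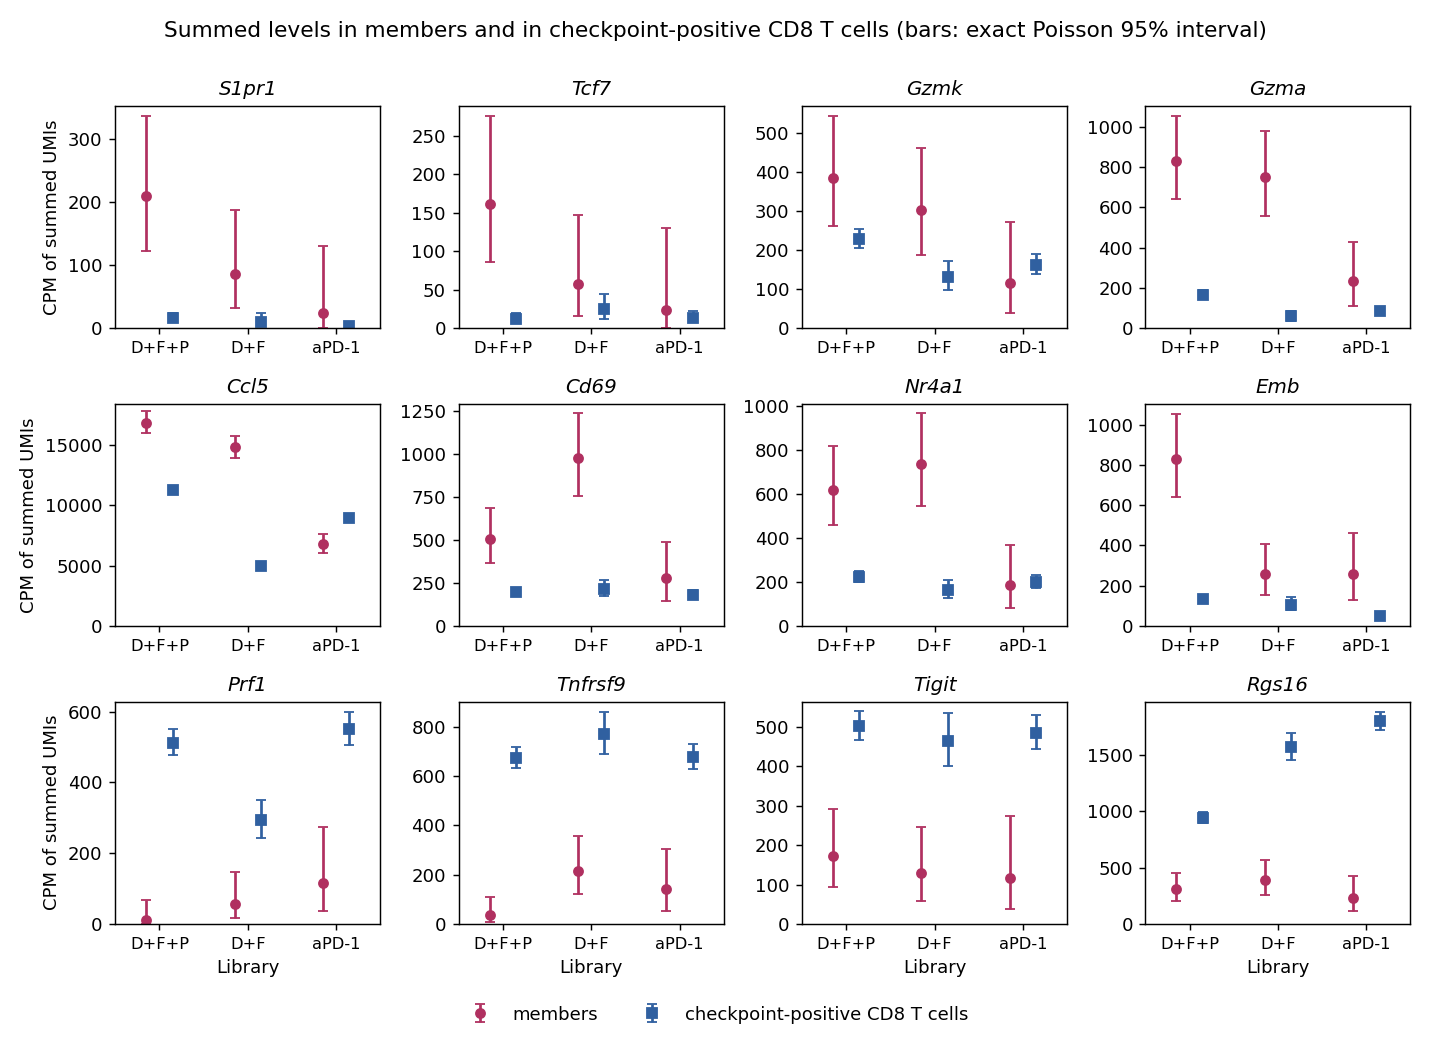
Levels of 12 genes in CPM of summed UMIs (y axes) by library (x axes) in members (circles) and checkpoint-positive CD8 T cells (squares), with exact Poisson 95% intervals; Control, with 2 members, is left out. Gzma is higher in members of every library shown, S1pr1 rests on 1 UMI in aPD-1 members, and Prf1, Tnfrsf9, Tigit and Rgs16 are lower.

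Effector genes were split. Gzma, encoding the tryptase granzyme A, had 829, 748, 234 and 0 CPM in D+F+P, D+F, aPD-1 and Control members, against 165, 58.2, 85.4 and 132 CPM in checkpoint-positive cells, and rose with a log2 fold of 2.83 ± 0.28 (adjusted p = 0.00104). It was carried by 18 of 53 members of D+F+P and D+F, of which 1 held 29% of the UMIs. Ccl5, a chemokine that draws T cells and monocytes, had 16870, 14842, 6800 and 820 CPM in members, against 11245, 4970, 8982 and 3261 CPM in checkpoint-positive cells (log2 fold 1.11 ± 0.18, adjusted p = 0.00982). It was higher in D+F+P and D+F members and lower in aPD-1 members, whose level without the melanoma-rich cell was 12828 CPM. Gzmk had 384, 302, 117 and 0 CPM in members, against 228, 131, 163 and 198 CPM in checkpoint-positive cells, and did not pass (log2 fold 0.97 ± 0.24, adjusted p = 0.0594). Gzmb, granzyme B, had 1275, 1582, 444 and 154 CPM in members, against 2236, 1356, 1460 and 988 CPM in checkpoint-positive cells, and did not pass either. Prf1, the pore-forming perforin, had 1, 4, 5 and 0 UMIs in members, or 12.4, 57.5, 117 and 0 CPM, against 512, 293, 551 and 659 CPM in checkpoint-positive cells. It fell by 3.56 ± 0.47 on the log2 scale (adjusted p = 0.00312), and members were lower in D+F+P, D+F and aPD-1. The 0 UMIs of the 2 Control members rest on too few counts to place them. The 5 Prf1 UMIs of aPD-1 members all belonged to the melanoma-rich cell, without which the library had 0. Among 17 cytotoxic and cytokine genes 15 were tested, 2 rose (Gzma, and Xcl1, which attracts cross-presenting dendritic cells, at 2.17 ± 0.35) and 2 fell (Prf1, and the chemokine Ccl3, by 1.44 ± 0.24). Xcl1 rested on 7 of 53 members, 1 of which held 58% of its UMIs. Of 22 effector memory genes 15 were tested: Ccl5 and Gzma rose, the transcriptional regulator Id2 fell by 0.63 ± 0.15 (adjusted p = 0.0498, with a log2 fold of 0.0193 without cells holding a melanoma UMI), and the median was -0.05.

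Inhibitory and exhaustion genes that the rule had not used were lower in members than in checkpoint-positive cells. Of 22 such genes 19 were tested, 8 fell, none rose, and the median log2 fold was -0.97, the same with genes at 0 placed at their bound. The 2 cell sets were split on UMIs of Pdcd1, Havcr2 and Lag3, so genes that occur with these can differ through that choice. The part of the choice in these falls was not tested. Tigit, an inhibitory receptor, had 173, 129, 117 and 0 CPM in D+F+P, D+F, aPD-1 and Control members, against 502, 463, 485 and 395 CPM in checkpoint-positive cells, a fall of 1.62 ± 0.25 (adjusted p = 0.0058). Rgs16, a regulator of G protein signalling, had 309, 388, 234 and 0 CPM, against 944, 1572, 1804 and 922 CPM in checkpoint-positive cells, and fell by 1.79 ± 0.18 (adjusted p = 0.00104). Ctla4, another inhibitory receptor, had 186, 115, 46.7 and 0 CPM, against 382, 332, 432 and 395 CPM in checkpoint-positive cells, and fell by 1.19 ± 0.27. Tox, a transcription factor of exhausted cells, had 2, 1, 0 and 0 UMIs in members, and fell by 2.60 ± 0.58 (adjusted p = 0.0395). Members were below checkpoint-positive cells in D+F+P and D+F for these 4 genes, and in aPD-1 for Tigit, Rgs16 and Ctla4. The 0 Tox UMIs of aPD-1 members, and the 0 UMIs of all 4 genes in the 2 Control members, rest on too few counts to place them. Nrn1 and Nrgn, both named for neuronal proteins, had 0 UMIs in all 63 members. At 3 UMIs over the D+F+P and D+F members, their levels were at least 6.48-fold and at least 4.72-fold lower than in checkpoint-positive cells. Tox, Nrn1 and Nrgn met the low-count filter through checkpoint-positive cells, so genes this sparse in members could be tested only if lower there. The genes Pdcd1, Lag3 and Havcr2, at 0 by choice, had 523, 441 and 96.7 CPM in D+F+P checkpoint-positive cells. The list was not lower against CD8 T cells without Ly6c2 and checkpoint UMIs, described below. There 9 of its genes were tested, 7 had a positive fold, none passed, and the median log2 fold was 0.08.

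**Figure D3:**
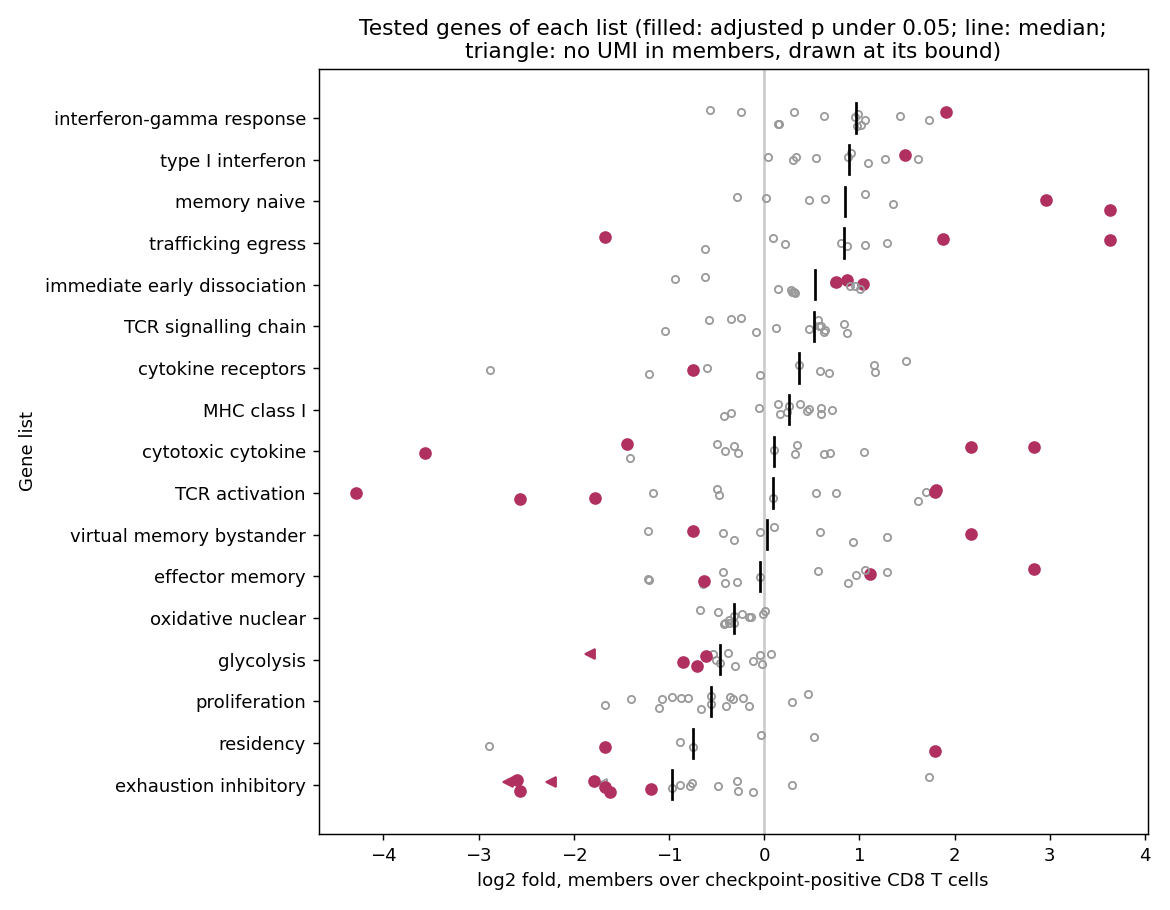
Log2 fold of members over checkpoint-positive CD8 T cells (x axis) for each tested gene of 17 lists (y axis, ordered by median, black lines); filled points passed an adjusted p of 0.05, and triangles are genes without a UMI in members, drawn at their bound. The exhaustion list has 8 filled points, all below 0, and the memory list has 2, S1pr1 and Tcf7, both above 0. Sparse genes could enter a list through the cell set in which they were higher.

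Activation genes moved both ways. Cd69, an early activation marker that retains T cells in tissue, had 507, 978, 280 and 0 CPM in D+F+P, D+F, aPD-1 and Control members, against 200, 216, 183 and 264 CPM in checkpoint-positive cells (log2 fold 1.80 ± 0.22, adjusted p = 0.00231). Nr4a1, an orphan nuclear receptor induced by antigen receptor signals, had 619, 733, 187 and 102 CPM, against 224, 165, 201 and 395 CPM in checkpoint-positive cells (1.80 ± 0.21, adjusted p = 0.002). Both were higher in D+F+P and D+F members, and Nr4a1 stood at 234 CPM in aPD-1 members without the melanoma-rich cell. The costimulatory receptor 4-1BB (Tnfrsf9) had 37.1, 216, 140 and 0 CPM in members, against 674, 771, 679 and 560 CPM in checkpoint-positive cells, and fell by 2.56 ± 0.35 (adjusted p = 0.00339), with 78% of its UMIs in D+F+P and D+F members in 1 cell. OX40 (Tnfrsf4) had 0, 2, 0 and 0 UMIs in members, against 200, 347, 279 and 560 CPM in checkpoint-positive cells, and the transcription factor Irf8 fell by 1.78 ± 0.35. Tnfrsf18 (-1.17 ± 0.34, adjusted p = 0.0907) and Cd27 (-0.29 ± 0.29, adjusted p = 0.647), further costimulatory receptors of the TNF receptor family, did not pass. In all, 13 of 18 T cell activation genes were tested, 2 rose and 3 fell. Of 15 immediate early genes, which tissue digestion can also induce, 14 were tested, 3 rose (Ier2 at 1.04, Junb at 0.87 and Nfkbia at 0.75) and none fell, with a median of 0.53. With cells thinned before the gate, Ier2 stood at -0.0253. The part of digestion in Cd69 and Nr4a1 was not tested. None of 14 tested genes of the proximal T cell receptor signalling chain passed (median 0.52).

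Interferon genes were mostly above 0 without passing. All 10 tested type I interferon genes of 25 had a positive fold, and 1 passed, the large ubiquitin ligase Rnf213 (log2 fold 1.48 ± 0.34, adjusted p = 0.0427), with a median of 0.89. Of 14 tested interferon gamma response genes 12 were positive and 1 passed, the guanylate-binding protein Gbp2. Gbp2 had 198, 302, 93.5 and 0 CPM in D+F+P, D+F, aPD-1 and Control members, against 84.6, 43.7, 29.1 and 0 CPM in checkpoint-positive cells (1.91 ± 0.40, adjusted p = 0.0294). Neither interferon list was higher against CD8 T cells without Ly6c2 and checkpoint UMIs, described below. There 0 of 5 tested type I interferon genes and 3 of 12 tested interferon gamma response genes had a positive fold, with medians of -0.59 and -0.38. Against checkpoint-positive cells, none of 13 tested MHC class I genes passed.

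Of 13 tested glycolytic genes 4 fell, 9 did not pass, and the median was -0.46. The summed level of the 14 listed genes was 6857, 8989, 18110 and 13016 CPM in D+F+P, D+F, aPD-1 and Control members, against 9812, 12791, 11970 and 12023 CPM in checkpoint-positive cells. Members were thus lower in D+F+P and D+F and higher in aPD-1 and Control, where 1 melanoma-rich cell each held much of the UMIs. Pgk1 had 532, 532, 2360 and 1076 CPM in D+F+P, D+F, aPD-1 and Control members, against 862, 1147, 1056 and 922 CPM in checkpoint-positive cells, and fell by 0.86 ± 0.17 (adjusted p = 0.0234). The order was opposite in aPD-1 and Control, and in aPD-1 the level without the melanoma-rich cell was 375 CPM. Pkm and Tpi1 fell by 0.61 ± 0.14 and 0.71 ± 0.16, and Slc16a3, the lactate exporter MCT4, had 0 UMIs in D+F+P and D+F members, at least 3.56-fold lower than in checkpoint-positive cells. None of 13 tested nuclear genes of oxidative phosphorylation passed (median -0.32), and none of 17 tested proliferation genes outside the rule did (median -0.56). Among 11 tested cytokine receptor genes Il2rb, the shared subunit for interleukins 2 and 15, fell by 0.75 ± 0.16 and the others did not pass. Il2rb had 557, 503, 187 and 154 CPM in members, against 910, 931, 902 and 560 CPM in checkpoint-positive cells.

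Other genes with the largest changes had varied roles. Zfp36l1, an RNA-binding protein that speeds transcript decay, had 260, 618, 93.5 and 256 CPM in D+F+P, D+F, aPD-1 and Control members, against 69.9, 82.5, 82.5 and 165 CPM in checkpoint-positive cells (log2 fold 2.44 ± 0.31, adjusted p = 0.00231). Emb, the membrane glycoprotein embigin, had 829, 259, 257 and 51.2 CPM, against 136, 107, 50.5 and 132 CPM in checkpoint-positive cells (2.23 ± 0.30, adjusted p = 0.00344). The cholesterol exporter Abcg1 (3.39 ± 0.58), the small GTPase Rab37 (2.49 ± 0.57), Elmsan1 (2.36 ± 0.47), the cofilin phosphatase Ssh2 (2.29 ± 0.40) and the LIM protein Pdlim1 (2.26 ± 0.52) also rose. Abcg1, Rab37 and Pdlim1 rested on 8, 7 and 8 of 53 members. Downwards, the protease inhibitor Serpine2 had 0 UMIs in D+F+P and D+F members and 1 in aPD-1, against 236, 252 and 154 CPM in checkpoint-positive cells, at least 11.99-fold lower over D+F+P and D+F. Areg, encoding the growth factor amphiregulin, fell by 3.97 ± 0.89, the secreted phosphoprotein Spp1 by 3.75 ± 0.57 and the hypoxia-induced lipid droplet gene Hilpda by 2.85 ± 0.40. The nuclear RNA Malat1 rose with a log2 fold of 1.16 ± 0.11, and mitochondrial UMIs were also a larger share of members, as given above; the part of RNA quality in these results was not tested.

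Shares of cells with a UMI were compared at equal depth. With every cell thinned to 1000 UMIs after the gate, S1pr1 was found in 10.7% of 56 members (4.03 to 21.9), in 1.17% of 511 checkpoint-positive cells and in 0.0213% of 4696 melanoma barcodes, which should lack it and so show the background of free RNA. CD4 T cells without Foxp3 had S1pr1 in 10.0% of 70 cells, and CD8 T cells without Ly6c2 and checkpoint UMIs in 0 of 35 (up to 10.003%). The members with S1pr1 were 5 of 20 in D+F+P and 1 of 26 in D+F. Tcf7 was found in 8.93% of members (2.96 to 19.6), in 1.76% of checkpoint-positive cells, in 5.71% of the 35 CD8 T cells without Ly6c2 and checkpoint UMIs (0.700 to 19.2), in 1.43% of CD4 T cells and in 0.532% of melanoma barcodes. Gzmk was found in 26.8% of members (15.8 to 40.3), 16.0% of checkpoint-positive cells and 1.43% of CD4 T cells without Foxp3, and Gzma in 26.8% of members (15.8 to 40.3), 7.44% of checkpoint-positive cells and 5.71% of these CD4 T cells. Prf1 was found in 0 of 56 members (up to 6.38%) and in 30.3% of checkpoint-positive cells, and Tnfrsf9 in 3.57% of members and 43.8% of checkpoint-positive cells. Isg15 was no more frequent in members (33.9%) than in melanoma barcodes (38.5%). Melanoma cells may make this interferon-induced gene themselves, so their share is no measure of free RNA for it. The part of free RNA in the Isg15 share of members was not tested. At full depth, medians of 2608 UMIs in members and 18437 in melanoma barcodes, S1pr1 was found in 22.2% of members, 4.94% of checkpoint-positive cells 21.1% of CD4 T cells and 0.298% of melanoma barcodes. Tcf7 was found at full depth in 22.2% of members, 11 of 55 CD8 T cells without Ly6c2 and checkpoint UMIs, 18.4% of CD4 T cells, 5.32% of checkpoint-positive cells and 8.98% of melanoma barcodes.

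**Figure D4:**
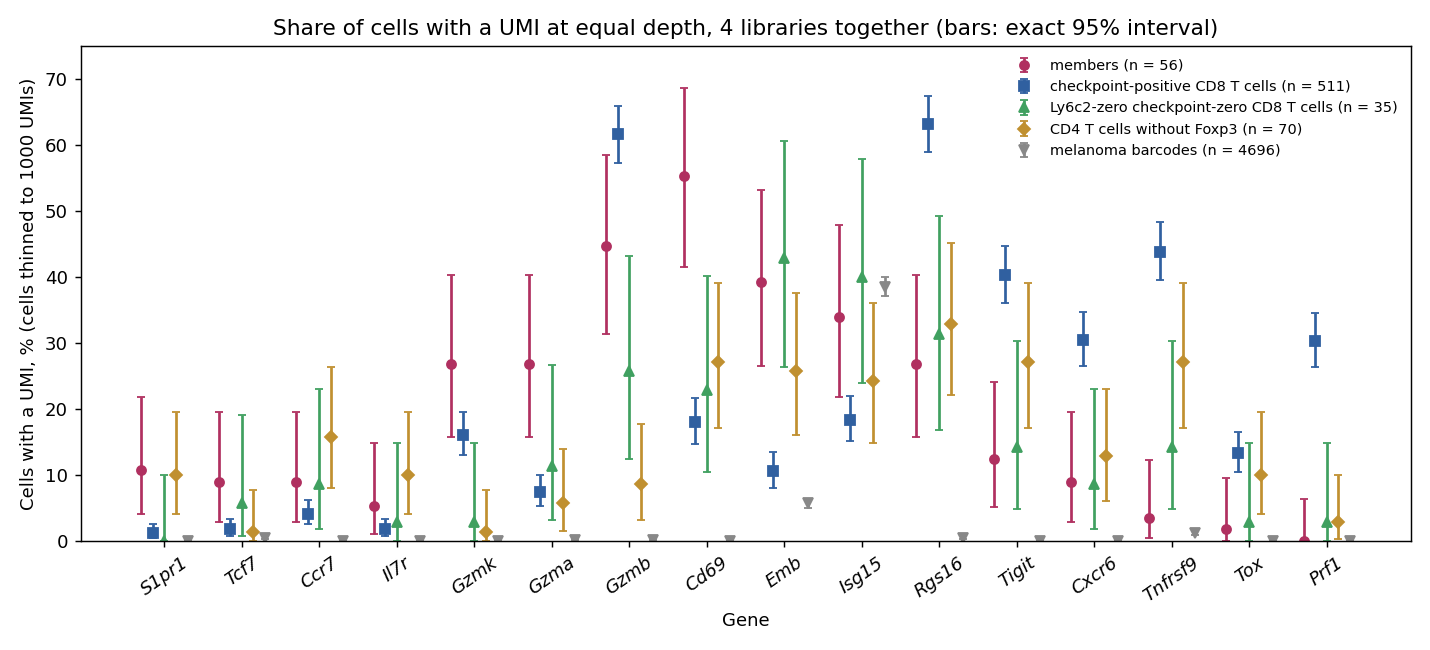
Percent of cells with at least 1 UMI (y axis) of 16 genes (x axis) after thinning each cell to 1000 UMIs, for members and 4 comparison sets over all libraries, with exact 95% intervals. Cd69 stands at 55.4% in members and 18.0% in checkpoint-positive cells, and Prf1 at 0% in members and 30.3% in checkpoint-positive cells.

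CD8 T cells that lacked both Ly6c2 and checkpoint UMIs were the nearest comparison, and few differences could be called against them. They numbered 30, 16, 7 and 2 in D+F+P, D+F, aPD-1 and Control. Of 974 genes tested over D+F+P and D+F, 1 passed (0.103%): Lyz2, the lysozyme of myeloid cells, which had 0 UMIs in all members and 180, 1225, 0 and 0 CPM in the comparison cells, all of it in 1 cell of D+F+P and 1 of D+F. The 7 NK cell markers summed to 571, 742, 371 and 0 CPM in the comparison cells, and their part in the results was not tested. In all, 89 genes had an unadjusted p under 0.05, and DESeq2 called 4 genes, all lower in members and without Lyz2 among them. Gzmk had 384, 302, 117 and 0 CPM in D+F+P, D+F, aPD-1 and Control members, against 38.5, 0, 0 and 0 CPM in these cells (log2 fold 3.46 ± 0.78, adjusted p = 0.0567). Ccl5 had 16870, 14842, 6800 and 820 CPM, against 1406, 10765, 6253 and 652 CPM in comparison cells (1.94 ± 0.48, adjusted p = 0.0801). Gzma and Nkg7 had log2 folds of 2.95 and 1.95 and did not pass. These 4 genes were higher in members of D+F+P and D+F, and the median log2 fold over 10 tested effector memory genes was 1.03, against -0.01 over all tested genes. Medians were also 1.58 over trafficking, 1.41 over T cell receptor signalling, 1.04 over cytotoxic and cytokine and 0.96 over memory and naive genes. They were -0.66 over glycolytic, -0.92 over nuclear oxidative phosphorylation, -0.59 over type I interferon and -0.38 over interferon gamma response genes. No gene of these lists passed, and the shift was not particular to effector memory genes. Summed glycolytic genes had 6857 and 8989 CPM in D+F+P and D+F members, against 15223 and 8575 CPM in comparison cells. Oxidative phosphorylation genes had 5607 and 6630 CPM, against 15275 and 6533 CPM, so these sums were lower in D+F+P members and not in D+F members. Among the comparison cells, 4 of D+F+P held 10 or more melanoma UMIs, up to 299. Without such cells edgeR called 26 genes of 756, 11 higher and 15 lower in members, with Gzmk among them (log2 fold 2.13), and the 98 calls against checkpoint-positive cells all remained among 242. At 1000 UMIs, Gzmk was found in 2.86% of these cells (0.0723 to 14.9), against 26.8% of members, and Emb in 42.9%, against 39.3% of members.

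Within the members, memory and granzyme transcripts occurred both together and apart. A UMI of Tcf7, S1pr1, Ccr7, Il7r or Lef1 was found in 34 of 63 members and a UMI of Gzma, Gzmb or Gzmk in 43. Both kinds met in 20 members, 14 had a memory gene without a granzyme, 23 a granzyme without a memory gene and 6 neither. Gzmk with no Tcf7 was found in 24 members and Tcf7 with no Gzmk in 10. A missing UMI in a shallow cell does not show that a gene was silent. In D+F+P, 9 of 27 members had both kinds, against 8 of 26 in D+F, 2 of 8 in aPD-1 and 1 of 2 in Control.

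Member levels were then set side by side between libraries, each library being a single sample. Between D+F+P and D+F, 300 genes outside the rule had at least 50 UMIs, and 75 were at least 1.5-fold apart (25.0%), 25 higher (8.33%) and 50 lower (16.7%) in D+F+P. The effector transcripts were close: Ccl5 had a log2 ratio of 0.18 (0.07 to 0.30), Gzma of 0.15 (-0.40 to 0.70), Gzmk of 0.35 (-0.50 to 1.22) and Gzmb of -0.31 (-0.71 to 0.09). Dusp2, a phosphatase of MAP kinases, had 1646 CPM in D+F+P members, against 331 CPM in D+F members (log2 ratio 2.32, 1.67 to 3.02), in 24 of 27 and 16 of 26 cells. Pnrc1, a nuclear receptor coactivator, had 631 CPM in D+F+P members, against 101 CPM in D+F members (2.65, 1.502 to 4.03). Emb, Ctla2a, an inhibitor of cathepsins, and Itm2b, a membrane protein, were the next highest, at 1.68, 1.25 and 0.93. Nfkbia, the inhibitor of NF-kB, had 1015 CPM in D+F+P members, against 2359 CPM in D+F members (-1.22, -1.62 to -0.83), and Msn, Zfp36 and Hsp90ab1 stood at -1.42, -1.26 and -0.90. With cells thinned to 1000 UMIs before the gate, 22 of 142 genes were at least 1.5-fold apart, 13 higher and 9 lower in D+F+P. Thinning before the gate changes which cells are members and leaves fewer genes. The excess of lower genes stayed in cells of at least 1000 UMIs (23 higher, 47 lower) and with each cell weighted equally (25 and 52). With median-of-ratios scaling 26 were higher and 45 lower. The part of depth in this balance was not tested.

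**Figure D5:**
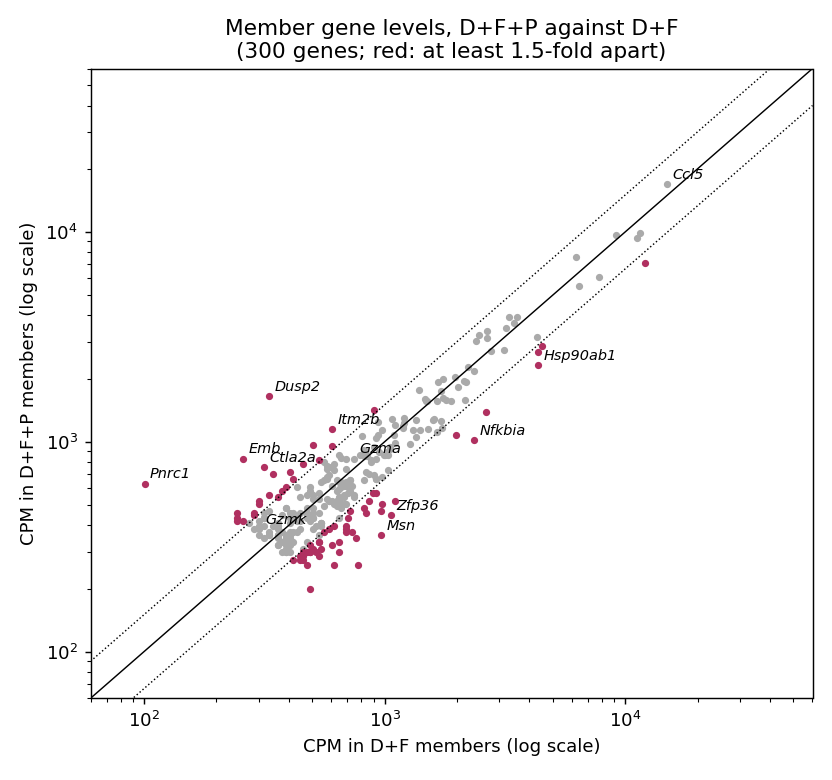
CPM in D+F+P members (y axis, log scale) against CPM in D+F members (x axis, log scale) for 300 genes with at least 50 UMIs, without genes of the rule, ribosomal protein, mitochondrial, receptor and unnamed genes; the solid line marks equality and dotted lines 1.5-fold. Ccl5, Gzma and Gzmk lie near equality, and Dusp2 stands at 1646 CPM in D+F+P and 331 CPM in D+F.

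The 8 aPD-1 members gave wide gaps that 1 cell shaped. Of 234 genes, 122 were at least 1.5-fold apart between D+F+P and aPD-1 (52.1%), 68 higher (29.1%) and 54 lower (23.1%) in D+F+P. With median-of-ratios scaling 57 were higher and 64 lower, and with each cell weighted equally 42 and 46, so the direction of the balance rests on the scaling. Of 227 genes, 114 were so between D+F and aPD-1 (50.2%), 73 higher (32.2%) and 41 lower (18.1%) in D+F. Without members of 10 or more melanoma UMIs these were 53 of 183 and 51 of 170 genes. The lowest ratios were those of Dct, Tyrp1, Pmel, Ifitm3, Mt1 and Cd74. Dct, a pigment enzyme of melanocytes, had 124 CPM in D+F+P members, against 2944 CPM in aPD-1 members, whose level without the melanoma-rich cell was 140 CPM. Ctla2a had 755 CPM in D+F+P members, against 46.7 CPM in aPD-1 members (log2 ratio 4.01, 2.10 to 7.09), or 93.6 CPM without that cell. Dusp2 had 1646 CPM in D+F+P members, against 280 CPM in aPD-1 members (2.55, 1.70 to 3.54), or 375 CPM without that cell, and Zfp36l2, a relative of Zfp36l1, had 668 CPM in D+F+P members, against 93.5 CPM in aPD-1 members, or 187 CPM without it. Srgn, the granule proteoglycan serglycin, had 2030 CPM in D+F+P members and 1970 CPM in D+F members, against 608 CPM in aPD-1 members, or 1030 CPM without the cell. Isg15, an interferon-induced gene, had 690 CPM in D+F members, against 117 CPM in aPD-1 members, all of it in the melanoma-rich cell. Gzmb had 1582 CPM in D+F members, against 444 CPM in aPD-1 members, or 328 CPM without that cell. Median-of-ratios scaling moved all log2 ratios by 0.11 and 0.10 in the pairs with aPD-1, as D+F+P and D+F stood over it.

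T cell receptor transcripts were spread over many V genes. Of 63 members, 39 had a Trbv gene with at least 2 UMIs, and these used 14 Trbv genes, led by Trbv12-2 (8 members), Trbv16 and Trbv29 (5 each) and Trbv19 (4). In D+F, Trbv12-2 was used by 5 of 19 such members, against 4 of 72 checkpoint-positive cells, and in D+F+P by 3 of 13, against 24 of 187. A Trbv and a Trav gene were both read in 14 members, and 1 combination, Trbv14 with Trav3-1, recurred, in 2 D+F+P members. Trbv14 was also among the 98 calls (log2 fold 3.90 ± 0.40), with 20, 9, 0 and 0 UMIs in D+F+P, D+F, aPD-1 and Control members from 4 cells of D+F+P and D+F. V gene transcripts do not show the joined receptor, so clones were not counted.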

How the data were processed

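The authors deposited raw UMI counts for 31053 genes as sparse matrices of whole numbers, per the file headers and values, made with Cell Ranger 3.1.0 on GRCm38 (mm10), per the submitters' processing notes. The annotation release and any later filters of the authors are not given in the sources used here. Libraries held 22691663 to 34444856 UMIs in 2525 to 2809 barcodes. Members were gated by the stated rule without a doublet caller. The members and gene lists were chosen with earlier results of these data known.

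Counts were summed per library and cell set. Tests between cell sets used edgeR 4.0.16 (TMM, filterByExpr, quasi-likelihood, library as block, Benjamini-Hochberg over all genes tested) with DESeq2 1.42.0 as an alternative. The low-count filter can be met by 1 cell set alone, so a sparse gene could be tested only on the side where it was higher. There was 1 residual degree of freedom, so spread was moderated across genes. On simulated counts for the checkpoint-positive comparison over 3000 genes, 19 of 88 genes changed 2-fold and 55 of 89 changed 4-fold were recovered, with 1 false call. For the comparison with cells lacking Ly6c2 and checkpoint UMIs, over 1014 genes, 7 of 70 and 36 of 80 were recovered, with 0 false calls. Each simulation used 1 dispersion for all genes, 0.00849 and 0.133 in this order. Single cells that hold much of a gene's UMIs were not simulated. Shares carry Clopper-Pearson, levels Poisson and ratios conditional binomial 95% intervals. A count of 0 is bounded at 3 UMIs over the group.

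Named genes are the label markers, the 10 highest and 10 lowest called folds, the calls and ends of each list, and the 5 genes at each end of a library pair, without ribosomal, mitochondrial, immunoglobulin, receptor V and unnamed genes. Coordinates and coding sequence come from GENCODE on GRCm38. Some genes picked by this rule are not reported here.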

Additional observations from a re-analysis of the deposited data

How the results depend on the processing

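Shares of CD8 T cells changed with the gate. After thinning to 1000 UMIs they were 16.0% in D+F+P and 5.14% in aPD-1, with up to 1 checkpoint UMI allowed 10.0% in D+F+P, with at least 2 Ly6c2 UMIs 7.49% in D+F, and 0% in Control without cells holding a melanoma UMI (0 of 4). Genes called against checkpoint-positive cells, 98 in all, were 28 with DESeq2, 264 without a filter on low counts (55 higher and 209 lower), 24 without the library block, 1 after thinning before the gate, 159 in cells of at least 1000 UMIs, 175 with at least 2 Ly6c2 UMIs in members, 50 in cells of 1000 to 5000 UMIs, 31 with cells thinned after the gate and 242 without cells of 10 or more melanoma UMIs. With aPD-1 admitted, leaving out D+F+P or D+F gave 0 and 41 calls by edgeR, with 262 and 439 genes at an unadjusted p under 0.05. In that fit Ccl5 was at a log2 fold of -0.0446 without D+F, and Pgk1 at 0.0262 without D+F+P and 0.125 without D+F. Id2 was at 0.0193 without cells holding a melanoma UMI, and Ier2 at -0.0253 after thinning before the gate. Over all alternatives, the 43 genes named from this comparison were unchanged in 456 cases, lost the call in 190, turned in these 5 and gained it in 3. Of the 456 cases, 39 without D+F+P and 37 without D+F rest on 1 remaining library. They kept the sign of the ratio only, with no test and so no call. The other unchanged cases kept direction and call status. Against cells without Ly6c2 and checkpoint UMIs, the 1 call became 4 with DESeq2, 9 without a filter, 12 in cells of 1000 to 5000 UMIs, 26 without melanoma-rich cells and 5 with cells thinned after the gate. That call was not among those of DESeq2, and its gene was not tested in cells of 1000 to 5000 UMIs or with cells thinned after the gate. By edgeR it became 0 without TMM (64 genes at an unadjusted p under 0.05), without the block (113), after thinning before the gate (38), at 1000 UMIs or more (53), without melanoma UMIs (19), with at least 2 Ly6c2 UMIs (56) and with aPD-1 admitted (13), where leaving out D+F+P or D+F also gave 0 (14 and 2). DESeq2 was run on the main cell sets only. Genes at least 1.5-fold apart between libraries were 22, 24 and 13 after thinning, for D+F+P against D+F, D+F+P against aPD-1 and D+F against aPD-1, and 53 and 51 in the pairs with aPD-1 without melanoma-rich cells. The causes of these changes were not tested. Some of the alternatives also left fewer cells or genes. aPD-1 and Control did not enter the main tests, so leaving them out changed nothing, and leaving out D+F+P or D+F there leaves 1 library and no test. No paired analysis was possible because each group has 1 library. The alternatives with aPD-1 admitted, with an upper UMI limit, with thinning after the gate, without nuclear and mitochondrial transcripts and without melanoma-rich cells were added after seeing the data. With 2 to 27 members a library, genes under about 3 UMIs could not be told from 0.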

Other observations

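Further genes among the 98 calls against checkpoint-positive CD8 T cells belong to none of the lists and were picked here after their values were seen. Higher in members were Dusp2, a MAP kinase phosphatase (log2 fold 1.57 ± 0.16), the kinase Pim1 (1.66 ± 0.19), Zfp36l2, an RNA-binding protein that promotes transcript decay (1.78 ± 0.21), Smad7, the inhibitor of TGF-beta signalling (1.67 ± 0.29), the histone demethylase Kdm6b (1.78 ± 0.25) and the lymphoid GTPase Gimap6 (1.23 ± 0.23). Lower in members were Stat3, a transcription factor of cytokine signalling (fell by 1.30 ± 0.23), the calcium-binding protein Anxa2 (by 1.32 ± 0.19), the actin-capping protein Capg (by 1.77 ± 0.32), the vesicle fusion protein Vamp8 (by 1.65 ± 0.28) and the galectin Lgals1 (by 0.68 ± 0.12). Errors are standard errors derived from edgeR's quasi-likelihood test over 2 libraries, with spread moderated across genes. They are not the spread between these libraries. All of these genes passed an adjusted p of 0.05 in edgeR.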
